A study of Homo sapiens with 3 samples.

Results

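The comparison described here sets a dual-resistant population of HCC827 cells against the erlotinib-resistant population from which it was derived. HCC827 is an established human line of non-small cell lung cancer in which EGFR carries an activating mutation. Every population was a polyclonal pool of cells marked with ClonTracer, a library of DNA barcodes that follows clones. The erlotinib-resistant population had received 2 µM erlotinib, an inhibitor of the EGFR kinase, for 47 days, and the dual-resistant population a further 10 days of 2 µM erlotinib together with 0.2 µM crizotinib, which inhibits the kinase MET. A vehicle population, kept in 0.1% DMSO for 4 days, is given beside them as a level only. RNA was sequenced from 1 library per population, so there was no replicate, and every difference below is a difference in size between 2 libraries with no error and no test. The added drug, the longer culture and the selection of cells all separate the 2 resistant populations, and their parts in a difference cannot be told apart.

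The deposited unit, FPKM, divides the fragments of a gene by its length and by the size of the library, so that levels can be compared between genes. After rows with the same symbol were added up, each gene's log2(FPKM + 1) in the erlotinib-resistant library was subtracted from that in the dual-resistant library. Of 30866 gene symbols, 9807 were compared. These had at least 5 FPKM in 1 of the 2 resistant libraries and a value above 0 in both. Another 38 genes were set aside with an exact 0 in the erlotinib-resistant column, 39 with an exact 0 in the dual-resistant column and 33 with a missing cell. At the edge of the level limit, SLC16A7 was compared with 4.32 and 5 FPKM and LRRC14 was not, with 3.75 and 4.99. A gene is called higher or lower in the dual-resistant library at a difference of 2-fold or more. CFL1, at 378 and 757 FPKM, was just past that limit and CTSO, at 10.6 and 22.1, just short of it. The depth of the libraries in counts is unknown, and low values are therefore the least precise.

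Erlotinib blocks signalling from mutant EGFR, which in these cells drives the RAS and ERK cascade. Amplified or highly expressed MET can replace EGFR as the source of that signal, and crizotinib closes this route. Carcinoma cells can also survive without either receptor after an epithelial-mesenchymal transition, in which cell junctions and apical polarity are lost and a contractile cytoskeleton and a fibrous matrix are built. Transcription factors of the ZEB and SNAI families repress epithelial genes through E-boxes in their promoters, and YAP with TEAD activates many of the contractile and matrix genes.

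Of the 9807 genes, 864 were higher in the dual-resistant library (8.81%) and 683 were lower (6.96%), and the other 8260 lay within 2-fold. At 4-fold or more, 291 were higher and 183 lower, and at 16-fold or more 30 and 15. The median log2 difference of all genes was -0.04, and the middle 50% of genes lay between -0.42 and 0.37. A gene that passed the level limit through 1 library alone tends to differ for that reason, and 438 of the higher and 287 of the lower genes were of this kind. A choice by the vehicle library was added after the data were seen: with at least 5 FPKM there, 475 of 8945 genes were higher (5.31%) and 675 were lower (7.55%), so that lower genes then outnumbered higher ones. Both pairs of percentages are the background for the counts that follow.

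**Figure D1:**
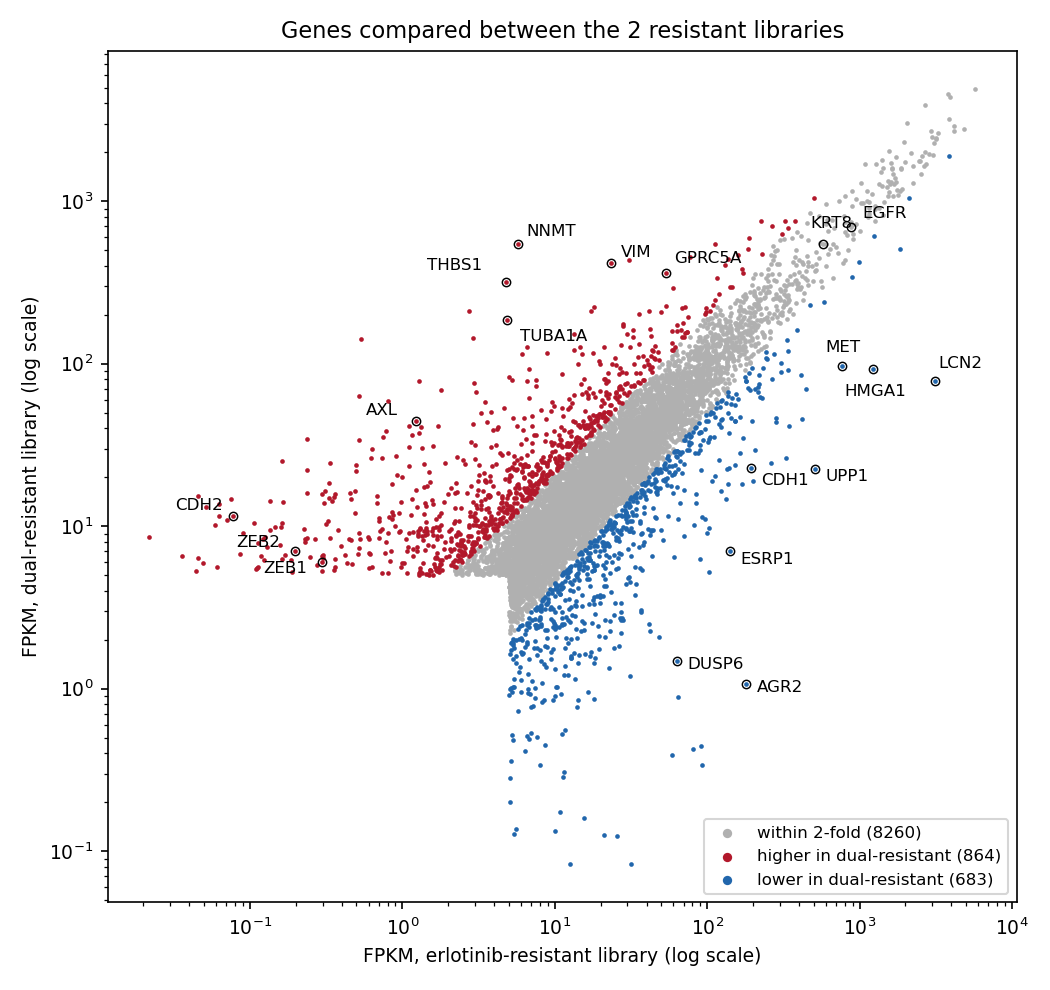
FPKM of each of the 9807 genes in the erlotinib-resistant library (horizontal, log scale) and the dual-resistant library (vertical, log scale), with 19 genes circled. The 864 higher genes (red) reach down to values far below 1 FPKM in the erlotinib-resistant library, and EGFR and KRT8 lie among the genes within 2-fold (grey).

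Values from here on are in the order vehicle, erlotinib-resistant and dual-resistant. The cell line was first checked against marker genes. Of 9 lung epithelial markers, 7 were compared, 4 were lower and none was higher, at a median log2 difference of -1.22, and the FPKM of all 9 summed to 3878, 3489 and 1821. The lower ones were CDH1, EPCAM, NAPSA and KRT18. The keratin KRT8 stood at 905, 573 and 542 FPKM, the keratin KRT19 at 1175, 1261 and 752 and the lung lineage factor NKX2-1 at 56.0, 40.0 and 28.4, all within 2-fold between the resistant libraries. The 7 fibroblast markers summed to 3.90, 2.56 and 8.25 FPKM, with COL1A1 at 5.38 in the dual-resistant library. COL1A2 and DCN, which mark fibroblasts, stood at 0.00487 and 0.0117 FPKM there, LUM and PDGFRB at 1.52 and 1.01, and PDGFRA was listed at 0 in all libraries. The 5 endothelial markers summed to 0.263 FPKM in the dual-resistant library, and of 5 leukocyte markers CD68, which many tumour lines also express, was alone above 1 FPKM. Of 5 neuroendocrine markers only NCAM1 was above 1 FPKM in the dual-resistant library, at 0.0303, 0.135 and 9.46. In RNA from a whole population, fewer cells of a type and less RNA per cell cannot be told apart.

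Receptor tyrosine kinases separated into a few that differed and a majority within 2-fold. Of 41 in the table, 16 were compared, 2 were higher, 3 were lower and 11 lay within the limit, and of the 10 with at least 5 FPKM in vehicle none was higher and 3 were lower. MET, the target of crizotinib, stood at 98.9, 763 and 96.2 FPKM, so its level in the dual-resistant library was close to that of vehicle cells, at a log2 difference of -2.97 from the erlotinib-resistant library. MST1R, the close relative of MET that binds macrophage-stimulating protein, stood at 11.8, 9.46 and 1.67 FPKM (log2 difference -1.97). The third lower member was ERBB3, the partner receptor through which MET and EGFR engage PI3 kinase, with a log2 difference of -2.30. EGFR stood at 171, 885 and 698 FPKM, a log2 difference of -0.34. AXL and FGFR1 were the higher members, with log2 differences of 4.35 and 3.54, and both were below 2 FPKM in the other libraries. IGF1R, at 4.78, 6.34 and 13 FPKM, and the receptor ROR1, at 2.38, 7.21 and 14.4, came close to the limit with log2 differences of 0.93 and 0.91.

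The ligands of these receptors differed more often than the receptors did by count. Of 20 compared, 11 were higher and 4 lower, and the median log2 difference was 1.22. It was 0.31 for the 11 ligands with at least 5 FPKM in vehicle, of which 4 were higher. The neurotrophin BDNF stood at 0.911, 2.23 and 12.9 FPKM. PDGFC, a platelet-derived growth factor, stood at 14, 6.32 and 46.1 FPKM, while EREG, a ligand of EGFR, stood at 56.8, 144 and 56.6. Among adaptors, GRB7, an adaptor of the ERBB receptors, stood at 35.3, 51.3 and 8.25 FPKM (log2 difference -2.50). Of the insulin-like growth factor binding proteins, IGFBP1 stood at 4.48, 2.49 and 25.6 FPKM and IGFBP6 at 1.41, 3.54 and 18.6, both higher. IGFBP2, at 26.3, 19.5 and 6.59, and IGFBP3, at 311, 186 and 70.4, were lower. Among 9 Eph receptors and ephrins, EFNB3 was higher (log2 difference 2.12) and EPHA2 was lower (-1.11).

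Among genes whose transcription follows ERK activity, 13 of 29 compared were lower in the dual-resistant library and 1 was higher, and the median log2 difference was -0.75. Besides the phosphatases and the ETS factors of this list, UPP1, the uridine phosphorylase, stood at 336, 507 and 22.5 FPKM (log2 difference -4.44). PHLDA2, a pleckstrin-homology protein, stood at 99.5, 153 and 23.7 (-2.64). CCND1, which encodes cyclin D1, stood at 186, 181 and 78.3 FPKM (-1.20). Not all of the list was low: MYC stood at 201, 360 and 310 FPKM and FOSL1, an AP-1 subunit, at 67.3, 146 and 111, both within 2-fold. The immediate early genes FOS, at 261, 5.60 and 22.3 FPKM, and FOSB, at 50.5, 0.602 and 8.29, were higher than in the erlotinib-resistant library and below vehicle. FOSL2, another AP-1 subunit, stood at 23.9, 43.2 and 122. In that list 4 of 18 were higher and 2 lower, the lower ones being MAFF and ZFP36, an RNA-binding protein that destabilises cytokine transcripts, at 42.9, 42.8 and 9.34 FPKM.

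**Figure D2:**
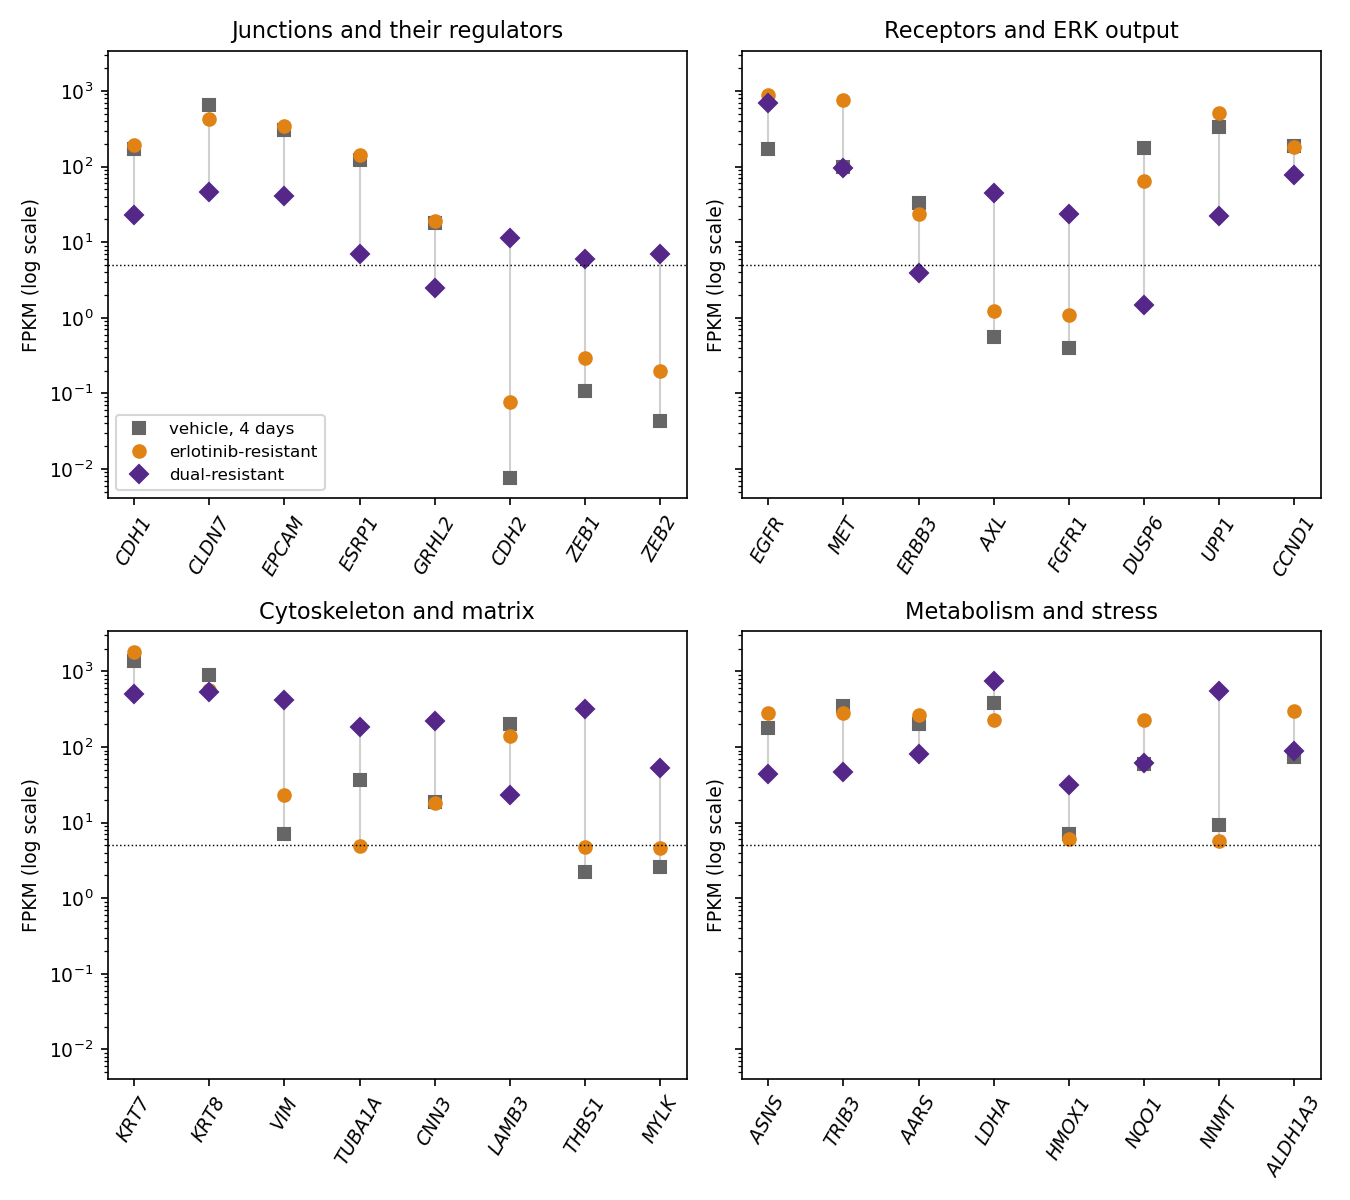
FPKM (log scale) of 32 genes in the vehicle (grey squares), erlotinib-resistant (orange circles) and dual-resistant (purple diamonds) libraries, with a dotted line at 5 FPKM. MET, NQO1 and ALDH1A3 lie near their vehicle level in the dual-resistant library, while CDH2, ZEB1, ZEB2, AXL, FGFR1, THBS1 and MYLK are above 5 FPKM there alone.

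Of 18 epithelial transcription factors compared, 11 were lower and 2 higher, and the median log2 difference was -1.56. Of the 7 with at least 5 FPKM in both resistant libraries, 1 was lower and 2 were higher, at a median of -0.48. The other lower ones passed the level limit through the erlotinib-resistant library alone, so their direction was fixed by the choice. Chosen by the vehicle library, 12 of 18 were lower and 1 was higher. GRHL2, which maintains junction genes, stood at 18.0, 19.2 and 2.44 FPKM (log2 difference -2.55). EHF, an ETS factor of epithelia, stood at 32.5, 23.0 and 2.61 (-2.73), and its relative ELF3 at 295, 216 and 71.8 (-1.57). For all 3 the erlotinib-resistant level was within 2-fold of the vehicle level, and the dual-resistant level was below both. In 10 of the 11 lower factors the erlotinib-resistant level was already below the vehicle level. OVOL1, at 6.23, 5.12 and 0.284 FPKM, and SPDEF, at 7.33, 5.06 and 0.202, were near 0 in the dual-resistant library.

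Among 11 factors of the mesenchymal transition that were compared, 4 were higher and none was lower. ZEB1 stood at 0.107, 0.295 and 5.98 FPKM and ZEB2 at 0.0429, 0.197 and 7.03, with log2 differences of 2.43 and 2.75. RUNX2 stood at 2.09, 3.27 and 14.3 FPKM (1.84) and TBX3 at 2.01, 1.70 and 6.39 (1.45). All 4 passed the level limit through the dual-resistant library alone, so their direction was fixed by the choice, and of the 7 factors with at least 5 FPKM in vehicle none was higher and 1 was lower. The members of the SNAI and TWIST families, named after their values were seen, differed less: SNAI2 stood at 1.08, 12.2 and 20.6 FPKM, TWIST2 at 9.36, 7.35 and 9.76, and SNAI1 at 3.14, 2.45 and 0.832. The epithelial splicing regulators ESRP1 and ESRP2 were lower, by log2 differences of -4.14 and -1.65, and RBM47, which acts beside them, by -1.02. The 11 other splicing regulators compared lay within the limit, among them PTBP1 at 141, 176 and 139 FPKM.

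Of 39 genes of the apical membrane and of polarised sorting, 31 were lower (79.5%) and none was higher, and the median log2 difference was -2.29. Chosen by the vehicle library, 32 of 40 were lower. AP1M2, a subunit of the adaptor that sorts proteins to the basolateral surface, stood at 128, 103 and 9.74 FPKM (log2 difference -3.27). RAB25, the GTPase of apical recycling, stood at 40.1, 27.3 and 2.63 (-2.96). The membrane protease TMPRSS4 stood at 33.0, 15.5 and 0.160 FPKM (-3.83), and GALNT3, which starts mucin-type glycosylation, at 13.3, 36.9 and 3.04 (-3.23). TMC5, TSPAN1, BSPRY and CBLC were lower by log2 differences between -3.33 and -3.01. The list was not uniformly low, since EPS8L2, an actin regulator, stood at 66.0, 59.5 and 68.3 FPKM.

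Cell junctions differed by type. Of 23 tight junction genes, 13 were lower and 1 was higher, at a median of -1.10. CLDN7 stood at 655, 420 and 45.8 FPKM (log2 difference -3.17), the scaffold TJP3 at 19.2, 17.1 and 1.59 (-2.80), CRB3, a polarity protein, at 38.6, 41.0 and 9.62 (-1.98) and cingulin, CGN, at 23.9, 20.8 and 5.04 (-1.85). The exception was CLDN2, a claudin of leaky epithelia, at 0.136, 0.496 and 21.8 FPKM (3.93). It passed the level limit through the dual-resistant library alone. Among tight junction genes with at least 5 FPKM in vehicle, 12 of 20 were lower and none was higher. Desmosomal genes differed less, with 3 of 10 lower, none higher and a median of -0.72. JUP, plakoglobin, stood at 154, 152 and 44.6 FPKM, PKP3 at 40.8, 38.3 and 12.1 and periplakin, PPL, at 11.2, 18.2 and 3.65. Desmoplakin, DSP, stood at 21.4, 21.9 and 18.8 FPKM and DSG2 at 76.5, 127 and 71.0, within the limit. The cadherins went in opposite directions. E-cadherin, CDH1, stood at 172, 194 and 22.8 FPKM (log2 difference -3.03) and P-cadherin, CDH3, at 101, 113 and 20.5 (-2.41). N-cadherin, CDH2, stood at 0.00759, 0.0776 and 11.5 FPKM (3.53) and CDH6 at 0.00511, 0.0454 and 6.39 (2.82). CDH2 and CDH6 passed the level limit through the dual-resistant library alone, so their direction was fixed by the choice. Of 13 adherens junction and cadherin genes compared, 4 were higher and 4 lower. Chosen by the vehicle library, 1 of 9 was higher and 4 were lower. The catenins that link cadherins to actin remained within the limit, with CTNNB1 at 197, 117 and 88.3 FPKM and CTNNA1 at 167, 181 and 109. CDH1 thus remained above CDH2 in level in the dual-resistant library.

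Promoters of these genes were searched for the E-box CACCTG on either strand, the letters bound by ZEB and SNAI factors. Promoter windows of 300 bases, from 250 before to 50 after the most upstream listed start, came from RefSeq on GRCh38.p14 and were found by Entrez ID for 7964 of the 9807 genes. An E-box was present in 20.6% of all 27305 promoters, in 17.8% of those of genes compared, in 15.5% of the 659 promoters of higher genes and in 30.8% of the 506 promoters of lower genes. At least 2 matches were present in 1.21% of the promoters of higher genes and 9.29% of those of lower genes. In the apical and sorting list an E-box was present in 16 of 26 (61.5%). The apical and the 3 junction lists together held it in 18 of 34 lower genes (52.9%) and 9 of 23 others (39.1%). The pooled lists were thus rich in the motif whether or not a member was lower, but the share differed by list. It was present in 6 of 18 tight junction genes, 3 of 6 desmosomal genes and 2 of 7 adherens junction genes. Among lower tight junction genes it was present in 3 of 11 (27.3%). Over all listed starts rather than 1 a gene, the shares were 29.0% for lower and 17.5% for higher genes. A match is a description of letters and not of a bound site. The 250 bases before the start of 4 lower genes are printed as examples of the lists that hold E-boxes, in capitals as CACCTG or its reverse complement CAGGTG. In AP1M2 (chr19:10587313-10587562, minus strand) they begin 57, 27 and 15 bases before it, in RAB25 (chr1:156060910-156061159, plus strand) 41 bases before it, in CRB3 (chr19:6464021-6464270, plus strand) at 5 places and in GALNT3 (chr2:165794248-165794497, minus strand) 93 bases before it.
AP1M2: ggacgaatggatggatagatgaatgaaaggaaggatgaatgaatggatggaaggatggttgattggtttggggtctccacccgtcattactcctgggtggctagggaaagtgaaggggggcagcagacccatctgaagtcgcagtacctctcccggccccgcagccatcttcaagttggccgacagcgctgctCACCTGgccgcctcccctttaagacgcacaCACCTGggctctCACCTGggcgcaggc
RAB25: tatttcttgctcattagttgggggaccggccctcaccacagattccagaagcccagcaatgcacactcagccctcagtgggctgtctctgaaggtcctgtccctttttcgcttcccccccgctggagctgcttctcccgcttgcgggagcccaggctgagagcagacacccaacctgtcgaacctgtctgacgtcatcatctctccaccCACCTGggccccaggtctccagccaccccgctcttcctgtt
CRB3: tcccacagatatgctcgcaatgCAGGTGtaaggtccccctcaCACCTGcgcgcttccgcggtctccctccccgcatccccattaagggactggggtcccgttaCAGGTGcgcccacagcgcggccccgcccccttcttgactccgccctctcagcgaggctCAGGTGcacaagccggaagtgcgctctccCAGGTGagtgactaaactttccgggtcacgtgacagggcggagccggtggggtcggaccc
GALNT3: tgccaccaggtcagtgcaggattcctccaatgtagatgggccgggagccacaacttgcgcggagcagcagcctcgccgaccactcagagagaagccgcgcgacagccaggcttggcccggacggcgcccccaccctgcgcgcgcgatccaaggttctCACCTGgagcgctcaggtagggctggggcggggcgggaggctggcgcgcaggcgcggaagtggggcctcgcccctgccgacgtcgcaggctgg

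**Figure D3:**
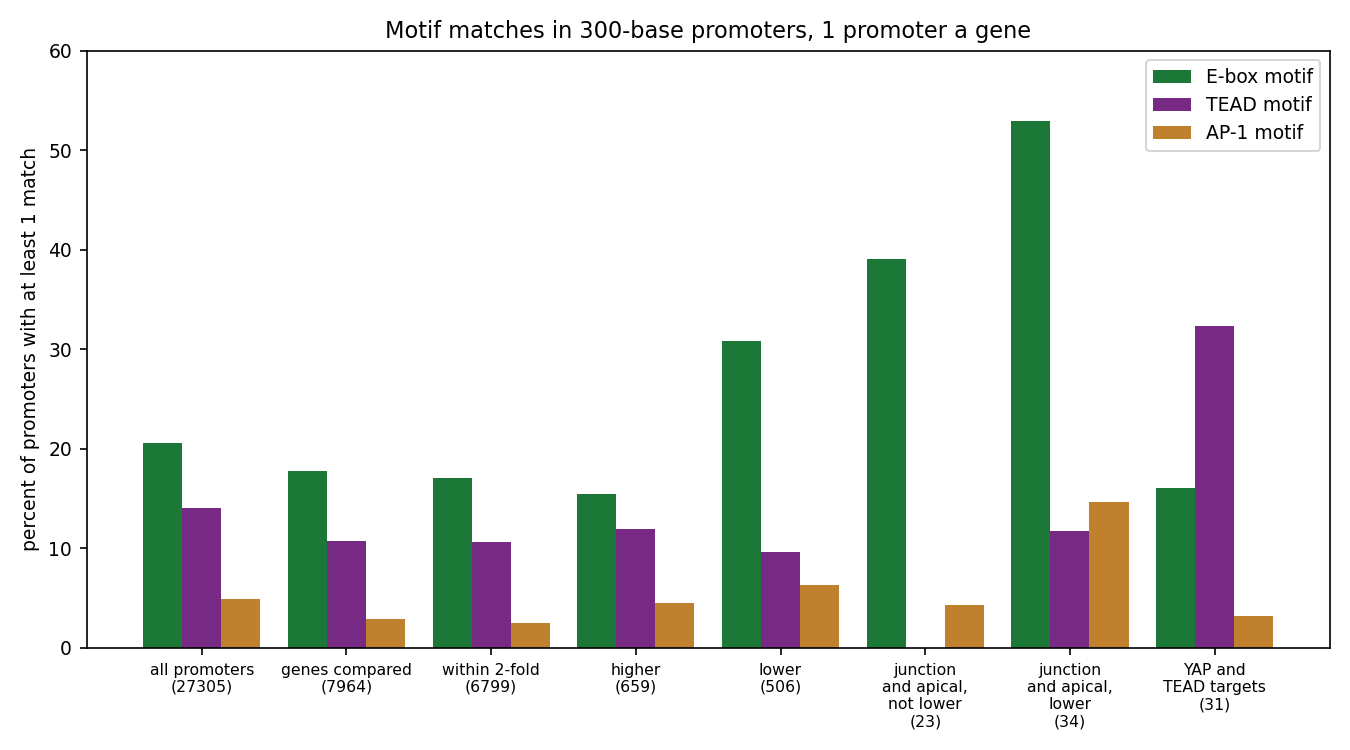
Percent of promoters with at least 1 match to the E-box, TEAD and AP-1 motifs, with the number of promoters in each set in brackets. The E-box bar is at 30.8% for lower genes and 15.5% for higher genes, and the TEAD bar at 32.3% for the YAP and TEAD list.

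Airway secretory genes were mostly lower and lung lineage genes were mixed. Of the airway secretory list, 15 of 18 compared were lower and 2 higher, with a median of -2.27. All 6 with at least 5 FPKM in both resistant libraries were lower, at a median of -1.66. The other lower ones passed the level limit through the erlotinib-resistant library alone, so their direction was fixed by the choice. Chosen by the vehicle library, 16 of 20 were lower and 1 was higher. The summed FPKM of the list's 37 genes was 16511, 3961 and 195. In the vehicle and erlotinib-resistant libraries most of that sum came from 1 gene, LCN2, at 13088, 3107 and 78.8 FPKM. SLPI, a secreted protease inhibitor, stood at 157, 31.1 and 1.20 FPKM (log2 difference -3.87), PIGR, which carries immunoglobulins across epithelia, at 77.6, 11.6 and 0.554 (-3.01) and the complement factor gene CFB at 725, 111 and 35.4 (-1.62). In 14 of the 15 lower genes the erlotinib-resistant level was already below the vehicle level. In the alveolar and lung lineage list 5 of 12 were lower and 3 higher. SFTA2, a surfactant-associated gene, stood at 171, 133 and 14.8 FPKM (-3.09) and LAMP3 at 29.1, 7.55 and 2.35 (-1.35). GPRC5A, a retinoic acid-induced receptor abundant in lung, stood at 49.6, 53.7 and 360 FPKM (2.72), ABCA3, a lipid transporter of lamellar bodies, at 4.91, 7.16 and 16.8 (1.13) and the cathepsin CTSH at 118, 47.9 and 118 (1.28). Of 18 serine proteases and inhibitors, 12 were lower and 3 higher. With at least 5 FPKM in both resistant libraries 7 of 10 were lower and 2 higher. By the vehicle choice 14 of 20 were lower and 2 higher. SERPINA3 stood at 49.3, 18.2 and 0.861 FPKM (-3.37) and the protease gene PRSS23 reached 339 FPKM in the dual-resistant library (1.54).

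**Figure D4:**
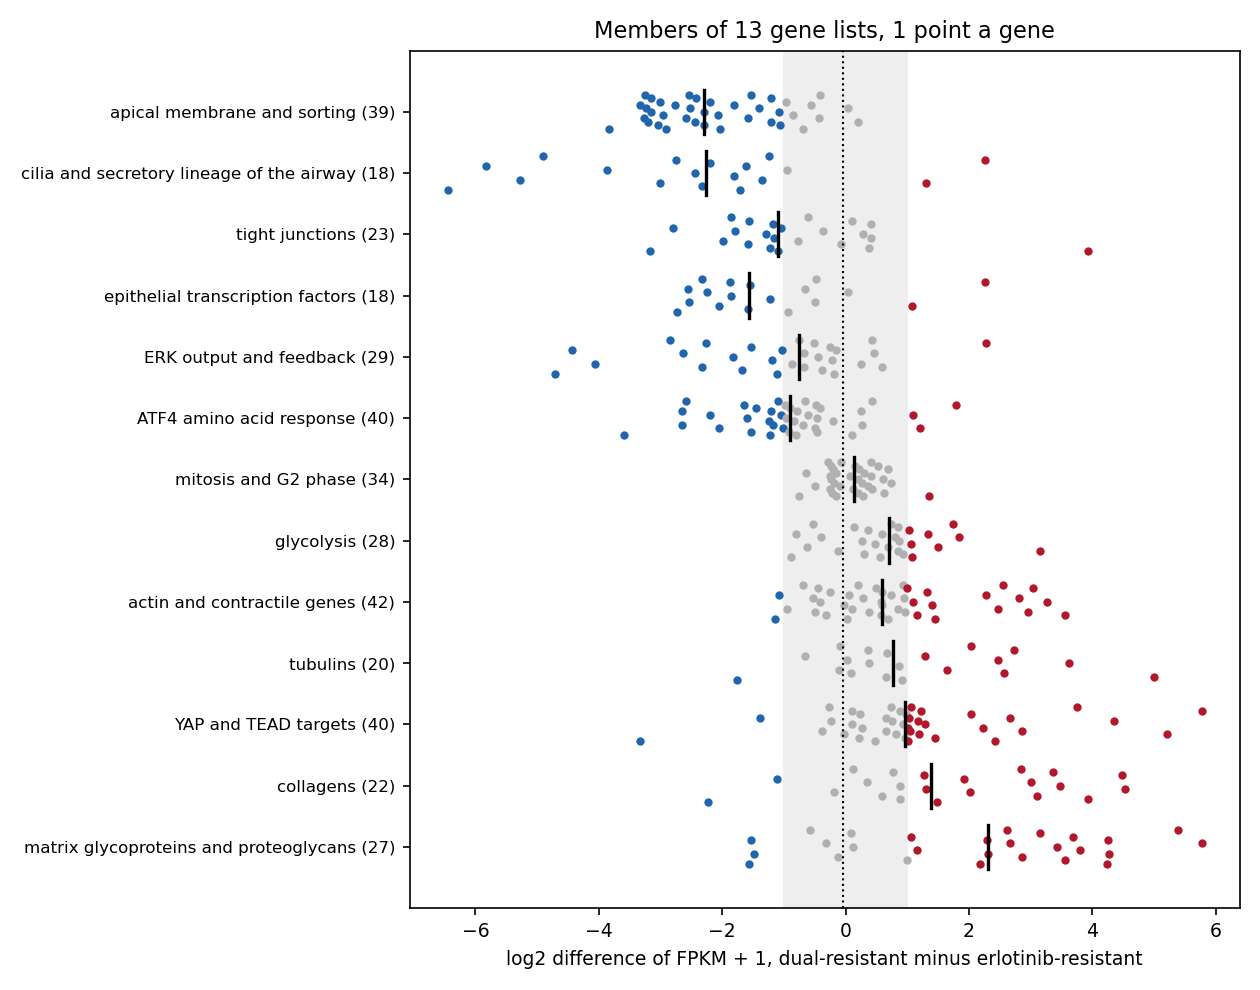
Log2 difference of each member compared in 13 gene lists, with the number of members in brackets, the list's median as a black line, the 2-fold limits as a grey band and the median of all genes as a dotted line. Medians run from -2.29 in the apical and sorting list to 2.30 in the matrix glycoprotein list, and the mitosis list lies almost entirely inside the band.

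The cytoskeleton differed in all of its 3 filament systems. Of 8 keratins compared, 3 were lower and 1 higher. KRT7 stood at 1357, 1835 and 509 FPKM (log2 difference -1.85) and KRT18 at 1115, 993 and 424 (-1.22), whereas KRT8, with which KRT18 pairs, kept its level. KRT19 stood at 1175, 1261 and 752 FPKM (-0.74). The summed FPKM of 23 keratins was 4714, 4824 and 2355, so keratin transcripts remained abundant beside vimentin, VIM, at 7.04, 23.3 and 414 FPKM. Lamins stayed within the limit, LMNA at 147, 135 and 93.0.

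Of 20 tubulin genes compared, 8 were higher and 1 was lower, at a median of 0.77, and the FPKM of all 21 summed to 1707, 1389 and 2862. With at least 5 FPKM in both resistant libraries 4 of 14 were higher and none lower. Chosen by vehicle, 5 of 17 were higher and 1 lower. The alpha-tubulin TUBA1A stood at 36.6, 4.89 and 186 FPKM (log2 difference 4.99). Of the beta-tubulins, TUBB3, the neuronal isotype, stood at 79.6, 50.1 and 207 (2.03), TUBB6 at 23.7, 14.1 and 99.2 (2.73) and TUBB4A at 0.873, 0.362 and 15.7 (3.61). TUBB2A and TUBB2B were higher by log2 differences of 2.56 and 2.48. TUBA1A, TUBB4A, TUBB2A and TUBB2B passed the level limit through the dual-resistant library alone, so their direction was fixed by the choice. Tubulin genes are near-identical copies in part, and the assignment of fragments among them is uncertain. Among 42 actin and contractile genes, 14 were higher and 2 lower, and with at least 5 FPKM in vehicle 11 of 39 were higher and 2 lower. Calponin CNN3 stood at 19.0, 18.0 and 222 FPKM (3.55), the myosin light chain kinase gene MYLK at 2.60, 4.63 and 53.3 (3.27), MYL9 at 6.02, 2.98 and 31.6 (3.04) and TAGLN, transgelin, at 1.47, 1.38 and 17.5 (2.96). The non-muscle myosin heavy chain MYH9 stood at 119, 186 and 506 FPKM (1.44), and its epithelial relative MYH14 at 21.4, 10.2 and 4.31 (-1.08). FLNA, filamin A, stood at 363, 417 and 422 and VCL, vinculin, at 21.5, 76.6 and 75.3, with log2 differences of 0.02 and -0.02.

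Fibrous matrix genes were mostly higher. Of 27 matrix glycoproteins and proteoglycans, 18 were higher and 3 lower, at a median of 2.30. Of 22 collagens and collagen-modifying enzymes, 13 were higher and 2 lower, at a median of 1.39. The summed fibroblast markers, given above, were also higher in the dual-resistant library, but COL1A2 and DCN were near 0 there. Many members were below 5 FPKM in the erlotinib-resistant library. Among members with at least 5 FPKM in vehicle the medians were 1, with 8 of 17 higher, and 0.67, with 3 of 10 higher. MATN2, matrilin, stood at 0.119, 0.523 and 62.9 FPKM (log2 difference 5.39), THBS2, a thrombospondin, at 0.341, 0.628 and 30.0 (4.25), the glypican GPC4 at 0.122, 0.238 and 22.2 (4.23) and SPP1, osteopontin, at 0.921, 5 and 82.5 (3.80). FSTL1 stood at 5.25, 11.1 and 86.9 FPKM (2.86) and SDC4, a syndecan, at 233, 165 and 179 (0.12). Collagen VI was represented by COL6A1 at 3, 1.10 and 30.8 FPKM (3.92) beside COL6A2 (4.53). COL12A1 stood at 0.152, 0.0710 and 10.9 (3.48), COL18A1 at 22.7, 25.3 and 97.9 (1.91) and LOXL2, a cross-linking lysyl oxidase, at 3, 13.3 and 121 (3.10).

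Basement membrane genes did not share this direction, with 2 of 10 higher and 2 lower. LAMB3, a chain of the laminin that anchors epithelia to the basement membrane, stood at 200, 139 and 22.9 FPKM (log2 difference -2.55). Another chain of that laminin, LAMA3, stood at 11.5, 28.1 and 23.0 (-0.28). The proteoglycans HSPG2, perlecan, at 18.0, 14.1 and 42.0, and AGRN, agrin, at 170, 98.9 and 221, were higher, and the other 6 of 10 lay within the limit, among them LAMA5 at 67.9, 79.5 and 77.5. The integrins matched neither list as a whole, with 2 of 12 higher and 3 lower. ITGA5, of the fibronectin receptor, stood at 17.6, 15.1 and 65.4 FPKM (2.04) and ITGB3 at 0.103, 0.448 and 8.30 (2.68). ITGB6, restricted to epithelia, stood at 18.4, 26.2 and 6.84 (-1.80), ITGA2 at 19.2, 20.7 and 3.73 (-2.20) and ITGB2 at 31.6, 30.5 and 4.87 (-2.43). ITGB1, the shared beta chain, stood at 164, 384 and 502 (0.38). In the plasminogen system, PLAU, urokinase, stood at 203, 411 and 85.0 FPKM (-2.26). TIMP2 stood at 59.1, 53.5 and 226 (2.06) and TIMP1 at 90.4, 73.2 and 83.2 (0.18).

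In the TGF-beta and BMP pathway 14 of 35 genes compared were higher and 2 lower, at a median of 0.67, and with at least 5 FPKM in vehicle 10 of 32 were higher and 3 lower, at a median of 0.30. Those with the largest differences included secreted antagonists. FSTL3, which binds activin, stood at 2.72, 3.04 and 67.2 FPKM (log2 difference 4.08) and NOG, noggin, which binds BMPs, at 0.0132, 0.0512 and 13.2 (3.75). INHBA, the activin A subunit, stood at 0.162, 0.124 and 6.18 (2.67). ID1, a target of BMP signalling, stood at 150, 207 and 29.4 FPKM (-2.77), and the signal transducer SMAD3 at 22.0, 44.3 and 59.8 (0.43). In the WNT list 4 of 13 were higher and 4 lower, with the antagonist DKK1 at 1.58, 9.83 and 54.8 FPKM (2.36) and the antagonist NKD2 at 2.06, 6.06 and 1.63 (-1.42). In the NOTCH and hedgehog list 3 of 12 were higher and 2 lower, with DTX3 at 8.39, 2.84 and 33.0 (3.15) and NOTCH3 at 9.12, 8.17 and 3.17 (-1.14).

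Of 40 YAP and TEAD targets, 19 were higher and 2 lower, at a median of 0.97. Chosen by the vehicle library the count was 12 of 29, with a median of 0.88. ANKRD1, a cardiac ankyrin repeat protein and a standard YAP reporter, stood at 0.724, 2.90 and 144 FPKM (log2 difference 5.21), and THBS1, thrombospondin 1, at 2.20, 4.82 and 318 (5.78). The lower members were IGFBP3 and NT5E, and MYOF, at 44.5, 115 and 133 FPKM, and DDAH1, at 32.5, 50 and 53.5, lay within the limit. The TEAD motif GGAATG, on either strand, was present in 14.1% of all promoters and in 10.7% of those of genes compared. It was present in 12% of those of higher genes, in 9.68% of those of lower genes and in 10 of 31 (32.3%) of this list. The AP-1 motif TGAGTCA, on either strand, was present in 4.9% of all promoters and in 2.88% of those of genes compared. Its share was 4.55% for higher and 6.32% for lower genes. None of the 3 motifs contains another. The bases before the starts of ANKRD1 (chr10:90921088-90921337, minus strand) and THBS1 (chr15:39580829-39581078, plus strand), GRCh38.p14, are printed with the TEAD motif in capitals because these 2 genes have the largest differences in the list.
ANKRD1: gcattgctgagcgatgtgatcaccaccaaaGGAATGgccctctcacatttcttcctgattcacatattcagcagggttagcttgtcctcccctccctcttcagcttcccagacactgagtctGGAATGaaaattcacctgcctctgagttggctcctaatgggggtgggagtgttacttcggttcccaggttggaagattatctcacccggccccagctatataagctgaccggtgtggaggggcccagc
THBS1: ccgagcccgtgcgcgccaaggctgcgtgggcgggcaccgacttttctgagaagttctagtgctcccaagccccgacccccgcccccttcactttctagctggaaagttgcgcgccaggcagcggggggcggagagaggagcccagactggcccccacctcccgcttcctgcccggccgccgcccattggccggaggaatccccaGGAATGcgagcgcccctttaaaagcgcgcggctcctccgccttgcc

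Of 11 genes of caveolae, 4 were higher and none was lower. PTRF, the cavin that coats caveolae, stood at 6.57 FPKM in vehicle and 17.8 in the erlotinib-resistant library and was higher by a log2 difference of 2.64 in the dual-resistant library, and PRKCDBP, another cavin, at 5.29, 3.43 and 21.3 (2.33). CAV2 stood at 29.1, 192 and 101 (-0.92), beside CAV1 with a log2 difference of -0.12. Of 23 guidance and neural adhesion genes, 7 were higher and 3 lower. With at least 5 FPKM in both resistant libraries 2 of 12 were higher and 1 lower, and chosen by vehicle 3 of 17 were higher and 2 lower. The adhesion molecule L1CAM, which passed the level limit through the dual-resistant library alone, stood at 0.0408, 0.237 and 8.50 FPKM. NRP2, a semaphorin co-receptor, stood at 11.8, 13.5 and 43.9 and SEMA3B at 24.8, 21 and 4.29. Of 7 vasoactive peptide genes compared, 6 were higher, and of the 7 with at least 5 FPKM in vehicle 4 were. The natriuretic peptide gene NPPB had the highest difference of all genes, at 0.0556, 0.534 and 142 FPKM (6.54). The endothelins EDN1 and EDN2 stood at 12.4, 5.40 and 24.5 FPKM (2.00) and at 0.709, 1.79 and 69.0 (4.65).

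**Figure D5:**
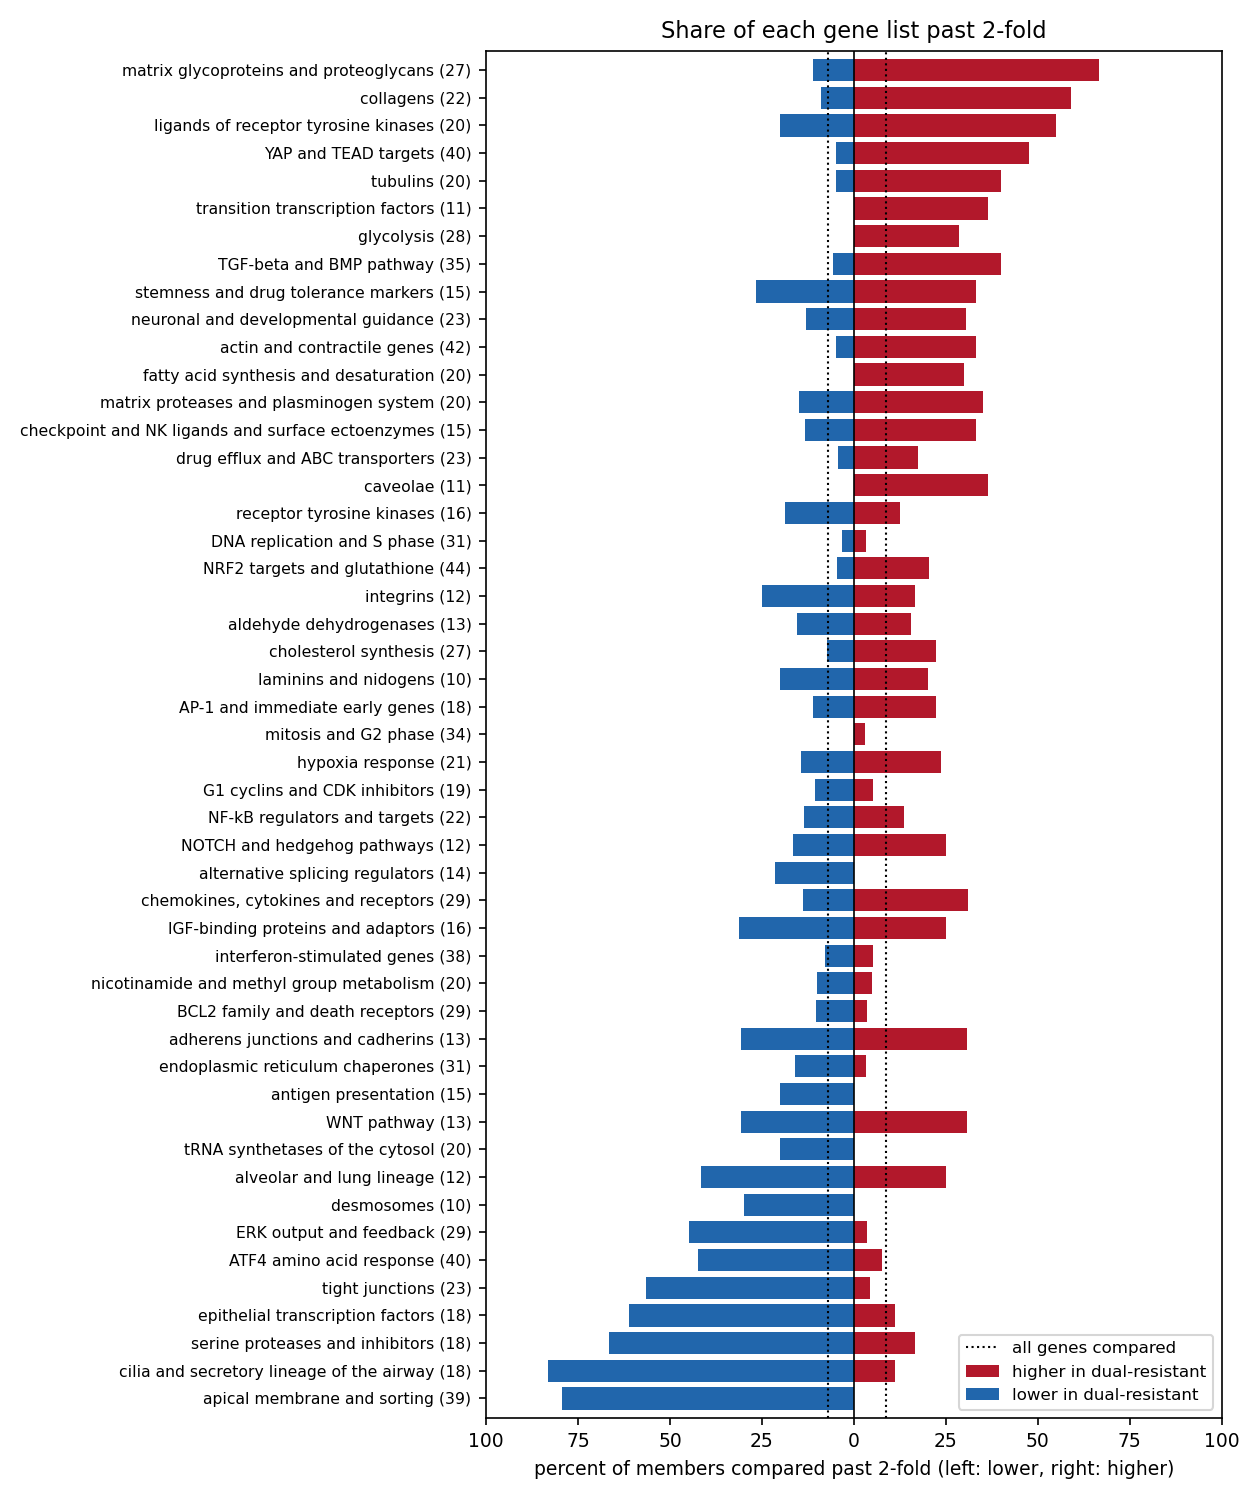
Percent of the members compared of each gene list with at least 10 compared that were lower (blue, to the left) or higher (red, to the right) in the dual-resistant library by 2-fold or more, ordered by the list's median, with the number compared in brackets and the shares over all genes, 6.96% and 8.81%, as dotted lines. The apical list reaches 79.5% on the left and the matrix glycoprotein list 66.7% on the right, and the mitosis list stays below the shares of all genes.

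Immune genes showed no shared direction. Of 29 chemokines, cytokines and receptors compared, 9 were higher and 4 lower, and with at least 5 FPKM in vehicle 3 of 32 were higher and 8 lower. CCL2, a monocyte chemokine, stood at 0.141, 0.500 and 23.8 FPKM (log2 difference 4.05), the scavenger receptor CXCR7 at 0.0357, 0.0751 and 14.6 (3.86) and CXCL6 at 6.12, 0.523 and 9.10 (2.73). IL20RB stood at 63.6, 42.3 and 2.28 (-3.72), while IL8, at 372, 53.8 and 41.9, and CXCL5, at 244, 83.9 and 73.9, lay within the limit. Only 3 of 22 NF-kB genes were higher and 3 lower, with TRAF1 at 0.835, 1.16 and 14.7 FPKM and ICAM1, at a log2 difference of 1.11, among the higher ones. Of 38 interferon-stimulated genes, 33 lay within the limit, 2 were higher and 3 lower, near the 84.2% of all genes within it. ISG15 stood at 1218, 136 and 108 FPKM, IFI6 at 1089, 86.0 and 96.5 and IFITM1 at 381, 36.1 and 10.8, while LGALS3BP, a secreted glycoprotein, stood at 577, 169 and 380. Of 15 antigen presentation genes 3 were lower, among them NLRC5, the activator of class I genes, at 12.3, 9.75 and 2.60 FPKM. Among surface ligands, CD70 stood at 2.31, 1.38 and 24.1 FPKM (3.39), CD274, which encodes PD-L1, at 4.91, 13 and 2.83 (-1.87) and NT5E, the ectonucleotidase CD73, at 61.7, 100 and 9.05 (-3.33).

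The amino acid response controlled by ATF4 was lower in breadth. Of 40 genes compared, all with at least 5 FPKM in both resistant libraries, 17 were lower and 3 higher, at a median of -0.91, and their summed FPKM, with 4 further genes, was 5984, 4843 and 2276. DDIT3, the stress factor CHOP, stood at 101, 120 and 25.4 FPKM (log2 difference -2.20) and the glycine transporter gene SLC6A9 at 52.5, 25.9 and 5.50 (-2.05). STC2, also induced by this pathway, stood at 100, 71.8 and 154 (1.09), and PSPH, of serine synthesis, at 115, 72.1 and 86.8 (0.26). Of the 20 cytosolic tRNA synthetases, many of which ATF4 also induces, 4 were lower and none was higher, at a median of -0.41. AARS stood at 204, 265 and 80.6 FPKM (-1.71), WARS at 727, 191 and 68.4 (-1.47) and SARS at 379, 334 and 139 (-1.26). QARS and FARSA differed by -0.02 and -0.05. Of 31 chaperones of the endoplasmic reticulum, 5 were lower and 1 was higher, with HSPA5, the chaperone BiP, at 448, 470 and 231 FPKM (-1.02), HERPUD1 at 112, 73.6 and 29.3 (-1.3) and PDIA4 at 153, 109 and 110 (0.01).

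Among metabolic lists, glycolysis and fatty acid synthesis had higher members and no lower ones. Of 28 glycolysis genes, 8 were higher and none was lower, at a median of 0.71. LDHA stood at 379, 226 and 753 FPKM (log2 difference 1.73), while LDHB, the other lactate dehydrogenase subunit, stood at 956, 947 and 1036 (0.13). ENO2 stood at 42.2, 17.8 and 66.4 FPKM (1.84) and PGAM1 at 39.1, 22.6 and 65.2 (1.49). For LDHA, ENO2 and PGAM1 the dual-resistant level was also above that of vehicle cells. In the hypoxia list, which shares regulators with glycolysis, 5 of 21 were higher and 3 lower. BNIP3 stood at 65.9, 45.7 and 129 FPKM, but VEGFA at 247, 91.6 and 22.2. Of 20 fatty acid genes, 6 were higher and none was lower. ACACA, the acetyl-CoA carboxylase, stood at 21.4, 27.8 and 88.6 FPKM (1.64) and ACLY, ATP citrate lyase, at 61.6, 104 and 212 (1.02). Of 27 cholesterol genes, 6 were higher and 2 lower, HMGCS1 standing at 14.3, 13.8 and 34.8, and SREBF1, a regulator of lipid synthesis, at 85.3, 59.1 and 23.3. Subunits of oxidative phosphorylation lay within the limit for 78 of 79.

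Redox genes were divided. Of 44 targets of NRF2 and glutathione genes, 9 were higher and 2 lower, at a median of 0.26. HMOX1, heme oxygenase, stood at 7.17, 6 and 31.9 FPKM (log2 difference 2.23), AKR1B1 at 29.8, 33.0 and 99.2 (1.56) and PRDX1, a peroxiredoxin, at 351, 268 and 705 (1.40). NQO1, a quinone reductase, stood at 59.0, 230 and 61.9 (-1.88). Of 13 aldehyde dehydrogenases 2 were higher and 2 lower, and the 2 retinaldehyde dehydrogenases went in opposite directions: ALDH1A3 stood at 73.7, 304 and 88.9 FPKM (-1.76) and ALDH1A1 at 0.0935, 0.809 and 58.8 (5.05). The targets of the aryl hydrocarbon receptor were split too, with CYP1A1 at 3.57, 51.5 and 19.2 FPKM (-1.38) and CYP1B1 at 1.33, 21.8 and 64.6 (1.53). NNMT, which methylates nicotinamide, stood at 9.37, 5.78 and 544 FPKM (6.33). The other 19 compared genes of nicotinamide and methyl group metabolism included none higher, with SAT1 at 646, 206 and 69.7 (-1.55), NAMPT, which recycles nicotinamide, at 169, 187 and 87.9 (-1.08) and MAT2A at 150, 113 and 111 (-0.02). Of 3 metallothioneins, MT1F was higher, at 10.7, 6.62 and 77.9.

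Genes of mitosis and of DNA replication were nearly alike in the 2 resistant libraries. Of all genes compared, 84.2% lay within 2-fold. Of 34 genes of mitosis 33 lay within the limit, with CDC20 at 24.1, 93.1 and 78.9 FPKM and UBE2C at 40.1, 103 and 92.1, and the exception was ANLN, anillin, at 6.35, 25.1 and 65.7 (log2 difference 1.35). Of 31 genes of DNA replication 29 lay within the limit, with TYMS, thymidylate synthase, higher at 5.54, 20 and 54.6 (1.40) and the licensing factor CDT1 lower at 8.74, 19.9 and 7.06 (-1.37). In the G1 list 16 of 19 lay within the limit, near that share of all genes. The inhibitor CDKN1A, p21, stood at 42.0, 13.7 and 3.44 FPKM (-1.73) and CDKN1B at 47.8, 50.9 and 54.0 (0.08). Of 29 genes of the BCL2 family and death receptors 25 lay within the limit, also near the share of all genes. BOK stood at 8.44, 4.98 and 19.9 FPKM (1.81), while BCL2A1, an anti-apoptotic member, stood at 10.2, 10.7 and 3.19 (-1.48), BIK at 48.7, 37.0 and 16.6 (-1.12) and the death receptor TNFRSF10B at 60.9, 77.2 and 35.4 (-1.10). BAX stood at 42.8, 52.5 and 54.1 (0.04). Of 23 ABC transporters 4 were higher and 1 lower. ABCC4 stood at 10.4, 12.8 and 27.6 FPKM (1.05), and ABCA12, a lipid transporter of keratinising epithelia, at 19.9, 11.4 and 0.287 (-3.27).

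Families taken by symbol were described in the same way. Of 9 S100 genes 4 were lower and none higher: S100P, S100A9 and S100A14 had log2 differences of -6.13, -5.43 and -5.11, while S100A11 stood at 857, 679 and 683 FPKM and S100A10 at 165, 205 and 232. S100P, S100A9 and S100A14 passed the level limit through the erlotinib-resistant library alone, so their direction was fixed by the choice. With at least 5 FPKM in both libraries 1 of 6 was lower, at a median of 0.08, and chosen by vehicle 4 of 10. Of 8 annexins 2 were higher, ANXA5 at 118, 131 and 406 (1.62) and ANXA6 at 0.246, 0.269 and 8.31 (2.88). Of 20 tetraspanins, 7 were higher and 2 lower, and CD9 differed by 0.01. Of 42 RAB GTPases, 5 were higher and 2 lower, the lower ones being RAB25 and RAB17, which both act in epithelial polarity. RAB3B stood at 1.51, 1.3 and 9.63 FPKM. Orphan receptors included GPRC5B at 0.393, 0.781 and 38.3 FPKM (4.46) and GPR56, an adhesion receptor, at 98.7, 60.2 and 6.45 (-3.04). Among 143 solute carriers 21 were higher and 13 lower, and with at least 5 FPKM in vehicle 10 of 121 were higher and 11 lower, with the zinc and manganese carrier SLC39A8 at 5.38, 4.21 and 41.0 (3.01). Zinc finger genes differed seldom, with 174 of 184 within the limit. Cytosolic ribosomal protein genes had a median of -0.36 with 76 of 81 within the limit, and proteasome subunits a median of 0.08 with 35 of 37.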

How the data were processed

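RNA from 3 populations was sequenced, 1 library each. The authors deposited expression as FPKM per gene, and the submitters' processing notes name TopHat 1.3, Cufflinks 1.3 and the GRCh37 build. Not given in the sources used here are the annotation, settings, strandedness and read counts. Fragments of overlapping genes and near-identical copies may therefore be divided between them. From the deposited FPKM, rows sharing a symbol were summed, log2(FPKM + 1) was taken and genes with at least 5 FPKM in 1 of the 2 resistant libraries were kept. The pseudocount of 1 understates the difference of low genes. With 1 library per group no test was made, and a 2-fold difference is a size only. The members and the 61 gene lists were chosen with earlier results of these data known. Genes named were drawn from all members of lists with up to 10 compared and from the 15 extremes on each side. In longer lists they were drawn from the 6 members with the largest differences and the 2 with the smallest at 50 FPKM or more. Not every gene so chosen, nor every family, is named. Other genes in the text are marked as chosen after their values were seen, or stand at a stated limit or in a marker list. The calculation was tested on simulated data. Python 3.11.15, numpy 2.4.6, pandas 2.3.3 and matplotlib 3.10.9 were used. Alternatives changed the pseudocount, level limit, scaling, genes at 0, shared symbols and window size. A few members are not reported here.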

Additional observations from a re-analysis of the deposited data

How the results depend on the processing

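No paired analysis was possible because each group had 1 library, and for the same reason no replicate could be left out. Against 864 higher and 683 lower genes, a pseudocount of 5 gave 554 and 418, and a minimum of 20 FPKM gave 418 and 373. Chosen after seeing the data, a minimum of 5 FPKM in both libraries gave 426 and 396, and one in the vehicle library gave 475 and 675. A minimum takes genes out and a pseudocount shrinks low genes by construction. The other settings gave 857 to 1240 higher and 571 to 855 lower genes. When the libraries were scaled to an equal sum of FPKM, the median of all genes went from -0.04 to 0.05, and the medians of the kinesins, myosin heavy chains, solute carriers, NOTCH and hedgehog genes and splicing regulators changed sign. The lowest median of neighbouring genes was -1.09 over 11 genes, -0.89 over 21 genes and -1.93 over 7. These were different regions, on chromosomes 16, 7 and 11 in that order. Genes near 5 FPKM are limited by a depth that is unknown.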

Other observations

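Neighbouring genes on a chromosome were described by the median log2 difference of 11 successive protein-coding genes compared, with positions in GRCh37 as the deposited table gives them. Of 9194 such windows, 18 had a median of 1 or more in size. The highest median, 1.5, belonged to a window on chromosome 17, where 9 of 11 genes were higher. The lowest, -1.09, belonged to chr16:69373415-70367731, where 6 were lower, among them NQO1 and AARS, which are also named above in their gene lists. A window on chromosome 7 (chr7:72983277-73644164), which holds the neighbouring claudin genes CLDN3 and CLDN4, had a median of -1.07. The window centred on MET had a median of -0.69 with 3 of 11 genes lower, MET among them. MET also lay in chr7:111846643-116559313, the window of rank 3 among the lowest, with a median of -0.94 and 5 genes lower. Over 21 genes, the lowest window held MET too, at chr7:107564246-121036422, with a median of -0.89 and 7 genes lower. By whole chromosome the medians lay between -0.29 on chromosome 14 and 0.25 on chromosome 17. DNA copy number was not measured in these files.

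Genes listed at 0 in 1 of the libraries were set aside, because an exact 0 in such a table can be a failed estimate. IGFBP7, a secreted binding protein of the matrix, was listed at 22.1, 0 and 448 FPKM in the vehicle, erlotinib-resistant and dual-resistant libraries. PLCG1, the phospholipase downstream of receptor tyrosine kinases, was listed at 5.89, 0 and 26.8. SCNN1A, a subunit of the epithelial sodium channel, was listed at 131, 112 and 0 FPKM, the defensin gene DEFB4A at 788, 180 and 0 and SPRR2D, of the cornified envelope, at 32.2, 29.9 and 0. The missing cells included the tropomyosin gene TPM1, LPP, CD46 and SOD2. HMGA1, a chromatin protein named after its values were seen, stood at 414, 1230 and 92.8 FPKM, a log2 difference of -3.71.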
